A study of Mus musculus with 6 samples.

Results

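Cholesterol synthesis was examined through 8 genes, 7 of them enzymes of the pathway (Hmgcs1, Idi1, Fdps, Fdft1, Sqle, Lss and Cyp51) and 1 the transcription factor gene Srebf2, chosen by gene symbol from a table of 23951 genes measured in the skin of 6 mice. Whole skin of C57Bl/6 mice at 6 to 7 months of age was analysed by sequencing of the poly(A) RNA. The 3 controls carried JunB +/+, and the other 3 carried the genotype given as JunB dep, here JunBΔep, in which a conditional JunB allele is deleted by a K5-Cre transgene in cells that express keratin 5. Whether the controls carried the transgene or an undeleted conditional allele is not stated. The mice were littermates, no treatment is given for either group, and the skin of the JunBΔep mice was lesional. Keratin 5 marks basal keratinocytes, so dermis, fat, muscle and immune cells of the JunBΔep samples keep JunB. The values are FPKM, fragment counts scaled by transcript length and by the size of the library, and they allow levels to be compared between genes because they are scaled by length. In bulk tissue of this kind, fewer cells of a type and less RNA per cell cannot be told apart.

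Animal cells build cholesterol from acetyl-CoA. Hmgcs1 acts before mevalonate, and Idi1 and Fdps assemble isoprenoid units into farnesyl diphosphate. Fdft1 then joins farnesyl units into squalene, Sqle oxidises squalene, Lss closes the rings to lanosterol and Cyp51 starts the trimming of lanosterol toward cholesterol. Srebf2 encodes SREBP-2, which leaves the endoplasmic reticulum when sterols are low and switches on these enzymes. In skin, cholesterol made in the epidermis is a component of the barrier lipids of the stratum corneum, and sebaceous glands also make sterols and squalene.

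Because these genes share a regulator, the stretches just before their transcription starts are shown. RefSeq promoters (build GRCm38.p6, 250 bases before to 50 after the start) were at hand for 5 of the 8 genes, which leaves Fdps, Fdft1 and Sqle unmatched. The 150 bases before the start are given 5′ to 3′ along the gene, and the capitals mark CCAAT on either strand, the box bound by NF-Y, and the core of the sterol regulatory element, TCACNCCAC, on either strand.
Idi1, chr13:8885456-8885605, plus strand: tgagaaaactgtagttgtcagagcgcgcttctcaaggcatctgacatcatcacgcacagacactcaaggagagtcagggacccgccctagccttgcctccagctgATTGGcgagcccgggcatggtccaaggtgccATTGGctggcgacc
Lss, chr10:76531455-76531604, plus strand: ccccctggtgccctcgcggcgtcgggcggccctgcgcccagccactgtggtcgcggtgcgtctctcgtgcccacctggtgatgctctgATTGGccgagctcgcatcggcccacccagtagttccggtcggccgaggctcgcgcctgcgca
Cyp51, chr5:4104698-4104847, minus strand: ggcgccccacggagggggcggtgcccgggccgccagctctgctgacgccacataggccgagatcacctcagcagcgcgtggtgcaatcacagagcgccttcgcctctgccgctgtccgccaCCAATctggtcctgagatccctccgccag
Srebf2, chr15:82147119-82147268, plus strand: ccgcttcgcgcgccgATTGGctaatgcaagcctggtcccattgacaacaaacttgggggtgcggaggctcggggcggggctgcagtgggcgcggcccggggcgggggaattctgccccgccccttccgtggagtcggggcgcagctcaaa
Hmgcs1, chr13:119690201-119690350, plus strand: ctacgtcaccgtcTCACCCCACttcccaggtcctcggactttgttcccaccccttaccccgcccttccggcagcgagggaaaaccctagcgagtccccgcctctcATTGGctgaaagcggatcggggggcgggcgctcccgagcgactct
CCAAT was found in the full window of 5 of the 5 promoters, against 37.4% of all 32851 promoters of the same length. GGGCGG, the Sp1 box, was also found in 5 of 5, against 35.7% of all promoters, and TGANTCA, the AP-1 site to which JunB-containing dimers bind, in 0 of 5, against 7.81%. TCACNCCAC was found in Hmgcs1 alone among the 5, against 1.24% of all promoters. Of the 21 enzymes of the whole route, described further on, 16 had a promoter in the table, of which 15 held CCAAT, 15 GGGCGG, 3 TGANTCA (Lbr, Dhcr7 and Msmo1) and 1 TCACNCCAC. These are matches of letters in a few short windows and describe no binding.

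On the mm9 build of the deposited values, with the GENCODE vM1 annotation, Idi1 lies on chromosome 13 from 8884852 to 8891641, Sqle on chromosome 15 from 59146632 to 59162747, Lss on chromosome 10 from 75994333 to 76019883 and Cyp51 on chromosome 5 from 4081145 to 4104746. Fdps lies on chromosome 3 from 88897514 to 88905881, Fdft1 on chromosome 14 from 63763990 to 63796630 and Srebf2 on chromosome 15 from 81977696 to 82035806. The span of Fdft1 overlaps Ctsb on the opposite strand and that of Lss overlaps 4930483K19Rik on the opposite strand, while Srebf2 holds Mir33 and Fdps a U6 gene. The libraries keep strand, but the sources used here do not say whether reads were assigned by strand, so Fdft1 and Lss may include reads of these neighbours.

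Several libraries stood apart. The controls held Junb, the deleted gene, at 56.9 to 72.4 FPKM. JunBΔep replicates 1 and 2 were below them, at 42.8 and 28.0 FPKM, whereas the library labelled JunBΔep replicate 0 had 129.6 FPKM, which goes against its label, although cells without keratin 5 keep JunB. In muscle transcripts, given with Vldlr below, that library was with the other JunBΔep mice and apart from the controls. That library also held the mucosal keratins Krt13 and Krt4 at 1990 and 1356 FPKM, with at most 0.937 FPKM elsewhere, and nearly lacked fat cell transcripts. Control replicate 0 held liver transcripts, with Alb at 823 FPKM. The 8 hair follicle markers summed to 3478 FPKM in control replicate 2 and 6252 FPKM in JunBΔep replicate 1, against 7.47 to 294 FPKM in the other 4 mice. Xist, which is transcribed from the inactive X chromosome of females, was at most 0.027 FPKM in 3 libraries and 27.6 to 34.2 FPKM in control replicate 1 and JunBΔep replicates 1 and 2, so the sexes were not evenly spread over the groups. The part of these features in the values below was not tested. Values given for the JunBΔep mice are those of the 3 libraries so labelled, this one included, and fold changes of the 7 measured genes are given with and without it.

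Across the 6 mice, 6 of the 7 measured genes had their top value in the library labelled JunBΔep replicate 0. By the test, 0 of 7 differed between the genotypes. Of all 17021 genes tested, 29.7% were highest in that library. The excess over the next highest mouse was 2.56-fold for Idi1, 2.28-fold for Sqle, 1.62-fold for Cyp51, 1.43-fold for Lss, 1.40-fold for Srebf2 and 1.25-fold for Fdft1. Fdps was the exception, with its highest value in control replicate 1. JunBΔep replicates 1 and 2 lay within the range of the controls or near it for most of these genes.

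Idi1, the isomerase that makes the reactive isoprenoid unit, had 42.4, 26.0 and 33.6 FPKM in the controls numbered 0, 1 and 2. The library labelled JunBΔep replicate 0 had 108.8 FPKM, and JunBΔep replicates 1 and 2 had 38.3 and 30.01 FPKM. The latter pair lay inside the range of the controls, and the groups overlapped.

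Sqle, squalene epoxidase and a second control point of the pathway, was at 48.7, 35.3 and 35.9 FPKM in the controls. In JunBΔep replicates 0, 1 and 2 it was at 111.0, 40.3 and 29.9 FPKM. The lowest value of the 6 was thus that of JunBΔep replicate 2, and the highest that of the library labelled JunBΔep replicate 0, whose Junb level goes against its label. Cyp51, the lanosterol demethylase, was at 44.6, 26.5 and 28.1 FPKM in the controls and, in replicate order, at 72.3, 28.6 and 27.5 FPKM in the JunBΔep mice. Replicates 1 and 2 lay among the controls, and control replicate 0 was second of the 6 mice, as it was for Idi1 and Sqle.

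Lss, lanosterol synthase, was at 19.02, 5.82 and 13.0 FPKM in the controls. The JunBΔep mice had 27.3, 10.1 and 10.4 FPKM. The controls alone spanned a wide range, and JunBΔep replicates 1 and 2 lay inside it. Fdft1, squalene synthase, was at 47.9, 49.9 and 36.8 FPKM in the controls and at 62.8, 43.8 and 50.3 FPKM in the JunBΔep mice, a narrow spread compared with the enzymes after it.

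Fdps, farnesyl diphosphate synthase, whose product also feeds the other isoprenoids of the cell, was at 198.9, 224.6 and 148.6 FPKM in the controls. In the JunBΔep mice it was at 199.4, 148.0 and 153.0 FPKM. It was the highest of the 7 genes in every mouse, and the library labelled JunBΔep replicate 0 was level with control replicate 0. Hmgcs1 was listed at 0 FPKM in all 6 mice. An exact 0 in this table can be a failed estimate, as for Krt14, listed at 0 in the library where its partner Krt5 was at 3725 FPKM, so Hmgcs1 gives no level.

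Srebf2, the regulator, was at 35.7, 24.4 and 35.5 FPKM in the controls and at 66.9, 47.9 and 32.8 FPKM in the JunBΔep mice. The library labelled JunBΔep replicate 0 and JunBΔep replicate 1 were above every control, and replicate 2 was among them. Besides the library of doubtful label, 1 JunBΔep mouse was above all controls for Srebf2 (replicate 1) and 1 for Fdft1 (replicate 2), and none for the other 5 genes.

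**Figure D1:**
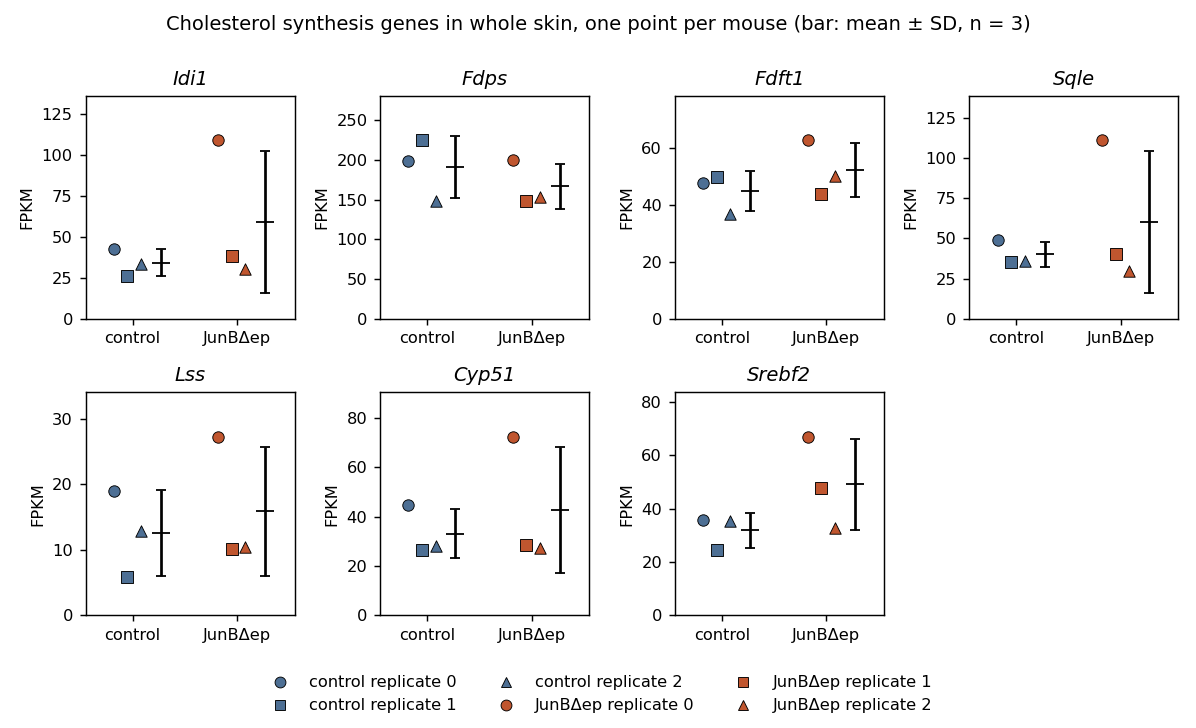
FPKM of the 7 measured genes in each mouse, with the mean and SD of each group of 3 beside the points and each vertical axis starting at 0. The library labelled JunBΔep replicate 0 is the highest point for 6 genes, from 1.25-fold (Fdft1) to 2.56-fold (Idi1) above the next mouse, and Fdps shows no such point.

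By level, Fdps was first and Lss last of the 7 genes in all 6 mice. In the controls the means were 190.7 ± 38.7 FPKM for Fdps (SD, n = 3), 44.9 ± 7.05 FPKM for Fdft1, 39.98 ± 7.57 FPKM for Sqle, 34.0 ± 8.24 FPKM for Idi1, 33.1 ± 10.002 FPKM for Cyp51, 31.9 ± 6.48 FPKM for Srebf2 and 12.6 ± 6.61 FPKM for Lss. From Fdft1 to Srebf2, neighbours in this order differed by less than the SD of either. Within each of the 3 controls, Fdft1 and Sqle held ranks 2 and 3, and Idi1, Cyp51 and Srebf2 shared ranks 4 to 6 in an order that varied. In the library labelled JunBΔep replicate 0, Fdft1 dropped to rank 6 of the 7, and Sqle and Idi1 came after Fdps.

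The group comparison used limma with an intensity trend on log2(FPKM + 0.5) over the 17021 genes whose mean reached 0.1 FPKM, and 7 of the 8 genes passed that filter. Of these 7, 0 had an adjusted p below 0.05, while 1.38% of all genes tested were called, each of the 235 lower in JunBΔep skin. An unadjusted p below 0.05 was found for 0 of the 7, against 1287 of all 17021 genes tested. The log2 fold changes on this scale, JunBΔep against control, were 0.58 for Srebf2 (standard error 0.30, adjusted p = 0.722 from limma), 0.58 for Idi1 (standard error 0.50), 0.37 for Sqle (0.49), 0.31 for Lss (0.55), 0.26 for Cyp51 (0.43), 0.22 for Fdft1 (0.20) and -0.18 for Fdps (0.23). Their adjusted p-values from limma lay between 0.722 and 0.848. The 95% interval for Idi1 ran from -0.64 to 1.80 and that for Sqle from -0.83 to 1.56, so differences in either direction are compatible with these mice. The intervals were narrower for Fdft1, from -0.28 to 0.71, and for Fdps, from -0.74 to 0.37.

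In an exact two-sided permutation test of each gene over the 20 assignments of 3 mice against 3, p ranged from 0.3 for Srebf2 to 0.8 for Sqle, where 0.1 is the smallest p this design allows. None of the 7 genes had all 3 JunBΔep mice above all controls, against 5.62% of all genes tested, and none had all 3 below, against 9.16%. The median log2 fold change of the 7 was 0.31, and 0.03 over all genes tested.

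Without the library labelled JunBΔep replicate 0 the median over the 7 genes was -0.14. The log2 fold change of Idi1 was then 0.03, that of Sqle -0.19, that of Cyp51 -0.19, that of Lss -0.14, that of Srebf2 0.33, that of Fdft1 0.08 and that of Fdps -0.32, with adjusted p-values from limma between 0.796 and 0.978. The numbers in the sample names fall into 2 series, 1 with JunBΔep replicate 0 and control replicates 0 and 1 and the other with control replicate 2 and JunBΔep replicates 1 and 2, and the labels do not say what the series are. Within the first, whose only library labelled JunBΔep is replicate 0 with its doubtful label, the log2 difference of that library from the controls was 1.70 for Idi1, 1.41 for Sqle, 1.32 for Lss, 1.17 for Srebf2 and 1.06 for Cyp51. Within the second the log2 difference of the JunBΔep mice from the control was 0.02, -0.05, -0.33, 0.16 and 0.00 in the same order. Fdft1 was at 0.36 and 0.35 in the 2 series and Fdps at -0.08 and 0.02.

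**Figure D2:**
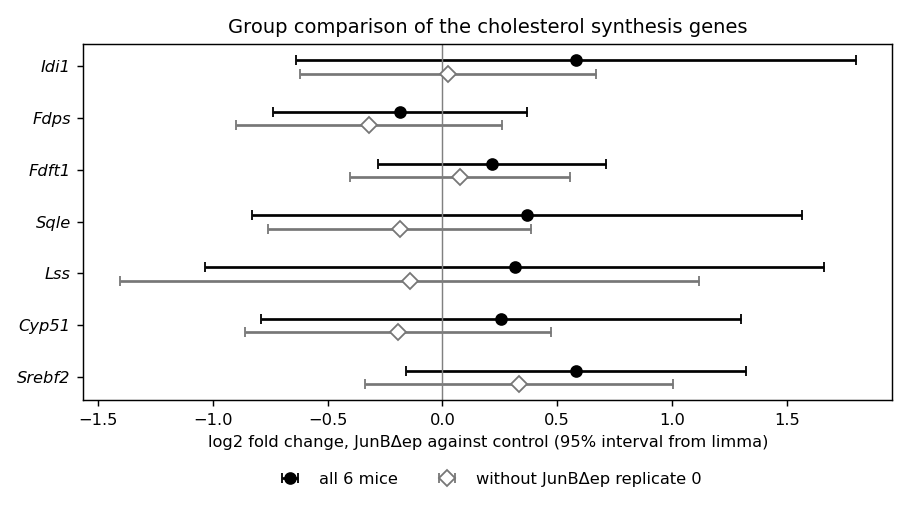
Log2 fold change of each gene on the log2(FPKM + 0.5) scale with its 95% interval from limma, from all 6 mice (filled circles) and without the library labelled JunBΔep replicate 0 (open diamonds). All intervals include 0, and Sqle, Lss and Cyp51 move from 0.37, 0.31 and 0.26 to -0.19, -0.14 and -0.19.

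The whole route from acetyl-CoA to cholesterol was taken from a list of 21 enzymes, of which 20 passed the filter (Hmgcs1 did not). Of the 20, 0 were called by limma in either direction and 0 had an unadjusted p below 0.05, against 1287 of all 17021 genes tested at the latter threshold. Their median log2 fold change was 0.29 and, without the library labelled JunBΔep replicate 0, -0.02. In that library 15 of the 20 enzymes had their highest value of the 6 mice, and 6 of the 20 exceeded every other mouse by more than 1.5-fold, against 11.5% of all genes tested. The median log2 difference of that library from the control mean was 0.71 over the 20 enzymes and -0.02 over all genes tested. For control replicates 0, 1 and 2 the same median was 0.31, -0.11 and -0.19, and for JunBΔep replicates 1 and 2 it was -0.07 and -0.05.

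Among the mevalonate enzymes, Acat2, a thiolase at the start of the route, and Pmvk, a kinase that acts on mevalonate phosphate, were above the controls in 2 of the 3 JunBΔep mice, with Pmvk at 92.3, 51.9 and 88.2 FPKM against 40.3 to 63.5 FPKM. Mvk and Mvd, which also act on mevalonate and its phosphates, exceeded the next mouse by 1.09-fold and 1.22-fold in the library labelled JunBΔep replicate 0.

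Among the sterol enzymes, Ebp, the sterol isomerase, reached 69.3 FPKM, its top value, in the library labelled JunBΔep replicate 0 and was at 25.4 to 32.6 FPKM in the other 5 mice. Hsd17b7, a sterol ketoreductase, had 20.4 FPKM there against 5.35 to 12.8 FPKM elsewhere. Other enzymes had a different order. Dhcr7, which makes cholesterol in the last step of one branch, was at 37.8 FPKM in that library, the lowest of the 6, against 42.5 to 63.7 FPKM, and Tm7sf2, a sterol reductase, was also lowest there, at 7.24 FPKM against 9.22 to 15.0 FPKM. Lbr, a sterol reductase that also anchors chromatin to the nuclear envelope, was highest in JunBΔep replicate 1, at 34.0 FPKM.

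**Figure D3:**
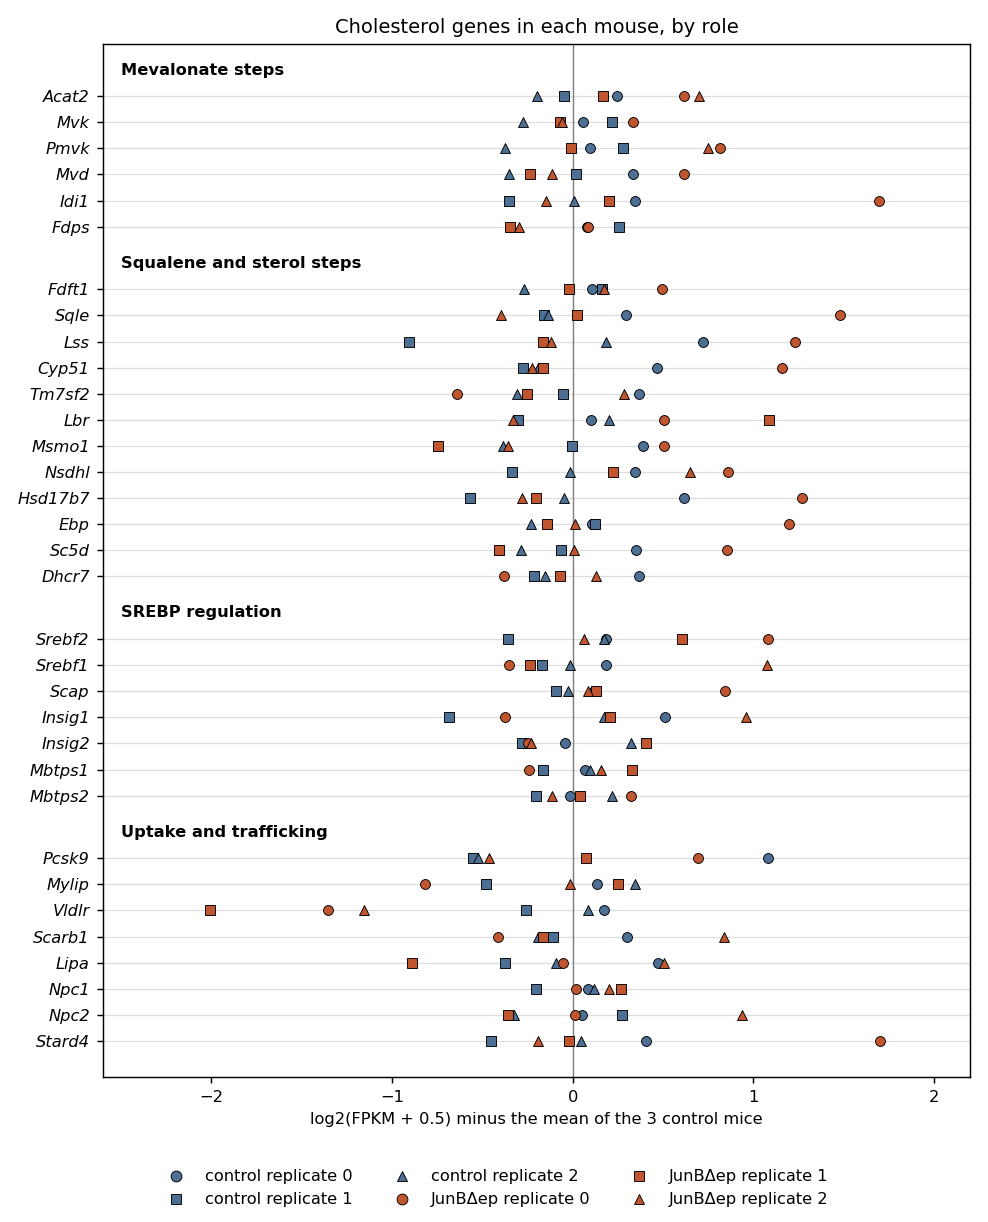
Log2(FPKM + 0.5) of the cholesterol genes drawn, in each mouse, minus the mean of the 3 control mice, with the genes grouped by role. The library labelled JunBΔep replicate 0 (orange circles) is the rightmost point for 13 of the 18 enzymes drawn (15 of the 20 tested, 2 of which are not drawn) and, among the other genes, for Srebf2, Scap, Mbtps2 and Stard4, and it is the leftmost for Tm7sf2, Dhcr7, Srebf1, Mbtps1, Mylip and Scarb1.

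Of 7 genes of SREBP regulation, which are Srebf2, Srebf1 and 5 genes whose products retain, escort or cleave SREBP, 0 were called. Scap, the escort of SREBP to the Golgi apparatus, reached 49.6 FPKM, its top value, in the library labelled JunBΔep replicate 0 and was at 25.7 to 30.1 FPKM elsewhere. Insig1, which holds SREBP back and is itself induced by it, did not follow the enzymes. It was at 43.2, 18.6 and 34.1 FPKM in the controls and at 23.1, 34.9 and 59.0 FPKM in the JunBΔep mice, with its highest value in replicate 2. Srebf1, the gene of the lipogenic SREBP-1, had the same highest mouse, at 97.6 FPKM in JunBΔep replicate 2 against 36.0 to 52.4 FPKM in the others.

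Of 9 genes of cholesterol uptake and trafficking, 0 were called. Stard4, a sterol carrier, was at 3.43, 1.66 and 2.56 FPKM in the controls and at 9.11, 2.42 and 2.10 FPKM in the JunBΔep mice. Its highest value was in the same library as those of Idi1 and Sqle, with control replicate 0 next. Mylip, a ubiquitin ligase that limits sterol uptake, was lowest in that library, at 10.7 FPKM against 13.6 to 24.5 FPKM.

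Vldlr, the receptor for triglyceride-rich VLDL, was the only one of these 9 genes with an unadjusted p below 0.05, against 1287 of all 17021 genes tested. It was at 9.41, 6.86 and 8.82 FPKM in the controls and at 2.95, 1.69 and 3.45 FPKM in the JunBΔep mice, so that all 3 were below all controls. This order was found for 9.16% of all genes tested. On the log2 scale the fold change was -1.50 with a standard error of 0.29 (unadjusted p = 0.00198 and adjusted p = 0.101 from limma), which missed the threshold, and it was -1.58 without the library labelled JunBΔep replicate 0. Transcripts of skeletal muscle, a tissue that expresses Vldlr, were also lower in all 3 JunBΔep mice, though among the controls replicate 1 had the lowest Vldlr and the highest muscle sum. The 9 muscle markers summed to 16936 to 23031 FPKM in the controls and to 1610 to 3877 FPKM in the JunBΔep mice, 9 of 9 with all JunBΔep mice below all controls and 7 of 9 called lower. Without the library labelled JunBΔep replicate 0, 1 of the 9 (Myh1) was called. None was called without JunBΔep replicate 1, without any 1 of the controls, without both libraries numbered 0, or with the replicate block or the name series block, where limma called 0 of all genes. The part of the muscle content in the Vldlr values was not tested.

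Fatty acid synthesis, the other branch under SREBP control, had another order of the mice. Fasn, fatty acid synthase, was at 65.4, 23.1 and 38.5 FPKM in the controls and in the JunBΔep mice, by replicate number, at 36.7, 133.4 and 738.2 FPKM. Over 12 genes of this list the median log2 difference from the control mean was -0.57, 0.64 and 1.79 in these 3 mice, where the cholesterol enzymes were at 0.71, -0.07 and -0.05. The 8 white adipocyte markers, among them Adipoq and Plin1, were at -6.74, -0.40 and 1.82 in the same order. Of the 12 fatty acid genes, 0 were called by limma, 0 had an unadjusted p below 0.05, and 0 were called without the library labelled JunBΔep replicate 0. Scd1 was listed at 0 in JunBΔep replicate 2, which can be a failed estimate, and entered the median of that mouse at -9.45. The difference between the pathways was not tested.

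Other markers were set beside the cholesterol genes. The 8 sebocyte markers had a median of 0.43 in control replicate 0, 0.53 in the library labelled JunBΔep replicate 0 and -0.27 to 0.00 in the other 4 mice, so the 2 highest mice were those of the cholesterol enzymes. Their summed level was 427 to 700 FPKM in the controls and 620 to 821 FPKM in the JunBΔep mice. In the library labelled JunBΔep replicate 0, Far2, Krt79 and Awat1 stood 1.30, 1.13 and 0.98 above the control mean on the log2 scale, while Scd3, Mc5r and Mgst1 were at -1.12, -0.95 and -0.57. Scd3 was below all controls in all 3 JunBΔep mice, with an adjusted p = 0.155 from limma, and 9.16% of all genes tested had this order. The macrophage markers had these 2 highest mice as well, with a median of 0.58 in control replicate 0, 0.21 in the library labelled JunBΔep replicate 0 and -1.55 to -0.14 in the other 4. Their sum was 224 to 465 FPKM in the controls and 89.5 to 657 FPKM in the JunBΔep mice.

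The neutrophil markers had the same 2 highest mice, at 1.72 and 4.39, and -1.02 to 0.28 in the other 4, and their sum was 14.1 to 1452 FPKM in the controls and 23.3 to 24548 FPKM in the JunBΔep mice. In the library labelled JunBΔep replicate 0, S100a8 alone made up 24456 FPKM of that sum, its partner S100a9 was listed at 0, and Cxcr2, Csf3r and Mmp8 were at 22.3, 44.3 and 25.3 FPKM. The median of the 7 epidermal keratinocyte markers lay between -0.38 and 0.28 in all 6 mice, and their sum was 8016 to 13618 FPKM in the controls and 7987 to 12677 FPKM in the JunBΔep mice. Single markers went opposite ways in the library labelled JunBΔep replicate 0. Krt1 stood 2.68 above the control mean on the log2 scale there, whereas Krt15 was at -4.36 and Lor at -1.38. The sum of 12677 FPKM is that of this library and includes Krt14 as listed, at 0, which can be a failed estimate. The keratinocyte median of this library counted that 0 at -11.07, and its neutrophil median counted the 0 of S100a9 at -6.15. The limma fits also used such zeros as listed. The fibroblast markers had medians of 0.74 in control replicate 0, 0.15 in control replicate 2 and 0.11 in the library labelled JunBΔep replicate 0. In the remaining mice they were at -0.96 to -0.73. The hepatocyte markers were at 5.43 in control replicate 0, at -2.87 in the library labelled JunBΔep replicate 0 and at -2.80 to -1.91 elsewhere. The part of these cells in the levels of the cholesterol genes was not tested.

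**Figure D4:**
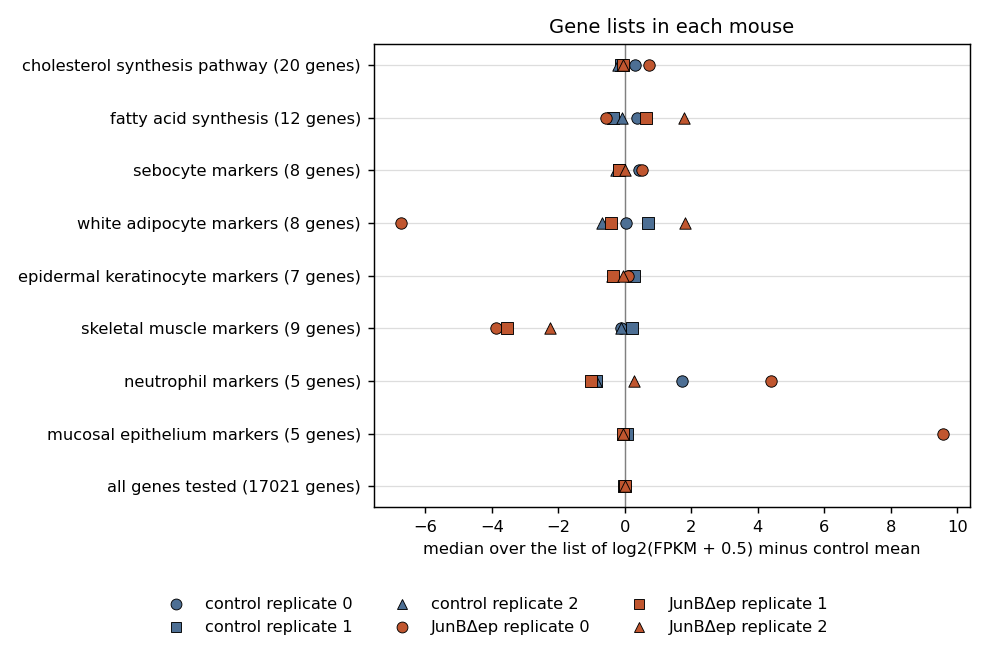
Median over each gene list of log2(FPKM + 0.5) minus the mean of the controls, for each mouse. The library labelled JunBΔep replicate 0 is highest for cholesterol synthesis (0.71), near the bottom of the scale for white adipocyte markers (-6.74) and at 9.58 for mucosal epithelium markers, while the median of all genes tested is within 0.03 of 0 in every mouse.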

How the data were processed

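RNA from the whole skin of 6 mice, 3 per genotype, had been sequenced from strand-specific poly(A) libraries. The authors aligned reads to mm9 with TopHat 2.0.10, Bowtie 1.0.0 and SAMtools 0.1.19, and deposited FPKM values per gene and mouse. Cufflinks is named in the submitters' processing notes, without a role. The sources used here do not say how the libraries were scaled. The authors tested read counts with DESeq2, and those counts were not analysed here. The FPKM sum to 481078 to 630363 per mouse. The read depth is unknown, so no counting interval is given.

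Values were compared as log2(FPKM + 0.5) with limma 3.58.1 (R 4.3.3, intensity trend, no block, two-sided, Benjamini-Hochberg adjustment over 17021 genes, threshold 0.05). Fold changes on this scale understate those of low genes. The script was tested on simulated data. The genes, lists and markers were written by hand and chosen with earlier results of these data known. Genes named are the 8 chosen, those of the pathway and marker lists, Junb and the 5 most alike in pattern outside the lists (mean of at least 1 FPKM). Some of these genes are not reported here. Xist was added after its values were seen. Ctsb, 4930483K19Rik, Mir33 and U6 are named only for their position. Alternatives were pseudocounts of 0.1 and 1, no filter or a filter at 1 FPKM, median ratios, quantile normalization, no trend, 2 blocks and each mouse left out. Leaving out both libraries numbered 0 was added after the data were seen. No value column was left unused. The series design describes 3 separate mice per group, and replicate numbers come from the labels.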

Additional observations from a re-analysis of the deposited data

How the results depend on the processing

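Over 16 alternatives, 0 of the 7 genes and 0 of the 20 enzymes were called by limma. Of 112 values of single genes, 107 kept their direction. The 5 that did not were Lss and Sqle in 2 alternatives each and Cyp51 in 1. With 1 mouse left out at a time, Sqle ranged from -0.19 to 0.75, Lss from -0.14 to 0.67 and Cyp51 from -0.19 to 0.50. Idi1 ranged from 0.03 to 0.95, Srebf2 from 0.33 to 0.84 and the median of the 7 from -0.14 to 0.54. The lowest values of Sqle, Cyp51, Idi1, Srebf2 and the median were those without the library labelled JunBΔep replicate 0. Lss was at -0.14 both without that library and without control replicate 1. Without both libraries numbered 0, Sqle was at -0.037, Fdps at -0.28 and the median of the 7 at 0.13. Lss was then at 0.22, Cyp51 at 0.038, Idi1 at 0.20, Srebf2 at 0.42 and Fdft1 at 0.13. The number of genes called over the whole table, 235, ranged from 0 to 254 with 1 mouse left out. It was 0 without control replicate 0, 1 or 2 or JunBΔep replicate 1, 135 without JunBΔep replicate 0 and 0 without both libraries numbered 0. It was also 0 with the replicate block and 0 with a block on the number series of the sample names. The latter block put the median of the 7 at 0.53, Sqle at 0.68, Lss at 0.50, Cyp51 at 0.53, Fdft1 at 0.35 and Fdps at -0.03, with 0 of the 7 called. The replicate numbers did not pair the mice. Deviations from the group means correlated at 0.12, -0.23 and -0.43 over genes between mice numbered 0, 1 and 2, and control replicate 2 was most like JunBΔep replicate 1, at 0.46. The cause of these changes was not tested. With 3 mice per group and unknown read depth, modest differences may go undetected.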

Other observations

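Genes that move cholesterol out of cells or store it had the following levels over the mice. Abca1, the sterol exporter, was at 7.21, 6.22 and 7.13 FPKM in the controls and in the JunBΔep mice, by replicate number, at 7.55, 4.58 and 6.33 FPKM. Nr1h3, the gene of the sterol sensor LXR alpha, was at 14.4, 15.4 and 8.63 FPKM in the controls and at 4.67, 5.74 and 24.3 FPKM in the JunBΔep mice. Soat1, which esterifies cholesterol, was at 11.0 to 15.6 FPKM in all 6 mice. Of the 5 efflux and 3 esterification genes, 0 were called by limma, with or without the library labelled JunBΔep replicate 0. In all 6 mice an unadjusted p below 0.05 was found for 0 of them, against 1287 of all 17021 genes tested.

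The isoprenoid branch, which leaves the pathway at farnesyl diphosphate, had 0 of 7 genes called. An unadjusted p below 0.05 was found for 1 of the 7, against 1287 of all 17021 genes tested. Pdss1 and Pdss2 encode the 2 subunits of the enzyme that makes the side chain of coenzyme Q. The library labelled JunBΔep replicate 0 held Pdss1 at 9.67 FPKM, against 1.84 to 2.21 FPKM in the other 5 mice. Pdss2 was at 5.09, 5.41 and 5.44 FPKM in the controls and at 2.90, 2.91 and 4.02 FPKM in the JunBΔep mice. All 3 were below all controls, an order shared by 9.16% of all genes tested. The log2 fold change of Pdss2 was -0.64 (adjusted p = 0.462 from limma). It was -0.57 (adjusted p = 0.556 from limma) without the library labelled JunBΔep replicate 0. The subunits thus lay on opposite sides of the controls in that library.

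Outside the lists, genes whose levels followed the mean profile of the 7 cholesterol genes most closely over the 6 mice included Psca, Rdh12, Slfn4 and Traf6, with Pearson r from 0.988 to 0.992, taken from 13613 genes compared. Without the library labelled JunBΔep replicate 0 the same r was 0.924 to 0.958 over 5 mice. Rdh12, a retinol dehydrogenase, was at 34.2, 26.7 and 21.8 FPKM in the controls and at 76.6, 25.9 and 24.7 FPKM in the JunBΔep mice. The points share their libraries, and genes were ranked on this measure, so it is a description.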
